A study of Mus musculus with 6 samples.

Results

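The transcripts described here encode the proteins of the mitochondrial ribosome in livers of male mice on a Western diet. They were taken as every gene symbol that starts with Mrpl or Mrps followed by a digit, with 5 pseudogene names left out (Mrpl23-ps1, Mrpl27-ps, Mrpl48-ps, Mrps36-ps1 and Mrps36-ps2). This gave 78 genes of the 29734 in the deposited table. All 78 passed the filter on low counts, which 18931 genes passed. Of the 78 proteins, 51 belong to the large subunit of the mitochondrial ribosome and 26 to the small subunit. The remaining gene, Mrps36, keeps the ribosomal name although its protein is now regarded as KGD4, a component of the 2-oxoglutarate dehydrogenase complex. The names do not always give the subunit, since Mrps18a and Mrps30 encode large-subunit proteins.

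The study compared 3 liver samples labelled Prdx1 C52S (replicates 1, 2 and 4) with 3 labelled WT (replicates 6, 8 and 9) by sequencing of poly(A)-selected RNA. PRDX1 is a peroxiredoxin, an enzyme that reduces hydrogen peroxide, and in the C52S form the cysteine at position 52 of the protein is replaced by serine. Both groups were males that began a Western diet, a diet rich in fat and sugar, at an age of 8 weeks and stayed on it for 20 weeks, so that no animal on another diet enters the comparison. The sources used here give neither strain nor cage, nor how the allele was made or bred.

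Mitochondrial ribosomes translate the few membrane proteins of the respiratory chain and the ATP synthase that are encoded in mitochondrial DNA. Their RNAs come from the mitochondrial genome, whereas all their proteins are encoded in the nucleus, translated in the cytosol and imported. Many of these proteins descend from those of a bacterial ribosome, and others were added in the course of mitochondrial evolution and have no bacterial counterpart. Hepatocytes are rich in mitochondria and make up most of the RNA of a whole-liver sample.

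The libraries held 60326469 to 76164949 estimated counts each, and pairwise Pearson correlations of TMM-scaled log2 CPM (counts scaled to the library total and the TMM factor) over all genes tested lay between 0.942 and 0.991. WT 8 stood apart: the 500 genes most abundant over all libraries took 49.9% of its counts, against 56.6% to 60.6% in the other 5 libraries, and its TMM factor, the scaling that edgeR derives from the bulk of the genes, was 1.28 against 0.883 to 1.04. Prdx1 itself was at 261, 238 and 242 FPKM in Prdx1 C52S and at 236, 232 and 270 FPKM in WT. These ranges overlapped, and since the allele changes a codon, the transcript level does not check the labels. FPKM, the deposited unit, is a number of fragments scaled to exon length and library depth. The labels number the 6 samples without naming separate animals, so the p-values measure the spread between these samples, which may be technical.

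The upstream regions of the genes were examined first for what the members share. Promoter windows from RefSeq (GRCm38.p6), covering 250 bases before to 50 after an annotated start site, were given for 69 of the 78 members (75 windows) and were compared with all 32851 mouse windows of the same length. Each motif was searched as exact letters on both strands. The letters CCGGAAG, a core bound by ETS factors such as GABPA, stood in 34.7% of the members' windows and 8.86% of all windows. The letters GCATGCGC, a core of the site of NRF1, a regulator of nuclear genes for mitochondrial proteins, stood in 10.7% against 2.71%. The letters ATGGCGGC, a core of the YY1 site, stood in 16% against 2.24%. The GC box GGGCGG was found in 52% against 35.7%, CCAAT in 40% against 37.4% and TATAAA in 6.67% against 13.6%. These are letter matches in fixed windows and not measured binding. The windows compared were not limited to the genes tested or matched for base composition.

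The matches differed in position. The 8 members with the NRF1 letters all had a match before the start site, and 18 of the 26 with the ETS letters did. By contrast, 11 of the 12 members with the YY1 letters had the match after the start site, where ATG can also be a start codon, and these overlap the beginning of the transcript. The sites of members described below are shown 5′ to 3′ on the gene's strand to let the 3 kinds of match be compared, with the searched letters (or their reverse complement) in capitals. The ETS matches lie at chr11:94653725-94653754 (plus strand) for Mrpl27, chr17:46110967-46110996 (plus) for Mrps18a, chr13:99344727-99344756 (plus) for Mrps27 and chr5:31613937-31613966 (plus) for Mrpl33. The NRF1 matches lie at chr11:97041437-97041466 (plus) for Mrpl10, chr17:35916645-35916674 (minus) for Mrps18b and chr5:31613928-31613957 (plus) for Mrpl33. The match of Mrps18b lies past the start site of its neighbour Ppp1r10, and the RefSeq start site of Mrpl33 lies inside the longer gene span of the deposited table. Its ETS and NRF1 matches are close enough for the printed stretches to overlap. The YY1 matches lie at chr11:94653791-94653820 (plus) for Mrpl27, chr17:46111007-46111036 (plus) for Mrps18a, chr13:99344792-99344821 (plus) for Mrps27 and chr13:118387216-118387245 (minus) for Mrps30.
Mrpl27, ETS: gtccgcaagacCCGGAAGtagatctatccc
Mrps18a, ETS: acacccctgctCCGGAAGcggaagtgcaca
Mrps27, ETS: tggtaggaccaCTTCCGGcggaggcgggct
Mrpl33, ETS: ccgcgcatgccCCGGAAGtagtcgttgagc
Mrpl10, NRF1: cccagctccacGCATGCGCatagcggccct
Mrps18b, NRF1: aacggcccgacGCATGCGCactgggagcac
Mrpl33, NRF1: taccggaacccGCGCATGCcccggaagtag
Mrpl27, YY1: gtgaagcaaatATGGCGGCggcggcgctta
Mrps18a, YY1: tgcgttccaagATGGCGGCcctcagggctc
Mrps27, YY1: tgcgctccaagATGGCGGCtcccatggtgc
Mrps30, YY1: ggcgggcgaaaATGGCGGCggccaggtatt

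Mrpl58 encodes a large-subunit protein that also acts as a peptidyl-tRNA hydrolase and frees stalled chains. The 100 bases before its start site, chr11:115403652-115403751 on the plus strand, are shown with the ETS letters in capitals, because the match lies within 20 bases of the start and a further copy covers the start itself.
Mrpl58: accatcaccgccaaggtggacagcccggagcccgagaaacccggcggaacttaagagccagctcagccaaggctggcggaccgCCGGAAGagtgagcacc

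Many members also share their upstream region with another gene. A protein-coding neighbour on the other strand, transcribed away from the member, started within 1000 nt of 20 of the 78 members (25.6%), against 1388 of the 14838 protein-coding genes tested (9.35%). In 19 of these 20 pairs the start sites were less than 300 nt apart. Start sites here were the outer ends of the gene spans in the deposited table, not the RefSeq start sites used for the windows. The 2 can differ: the span of Mrpl36 begins at chr13:73328513, but the 100 bases before its RefSeq start site are chr13:73330909-73331008. From that RefSeq start site, Ndufs6 would lie beyond the limit of 1000 nt. Some partners serve mitochondria as well: by gene span, Mrpl36 stood 51 nt from Ndufs6, a complex I subunit, Mrps12 stood 222 nt from Sars2, the mitochondrial seryl-tRNA synthetase, and Mrps27 stood 81 nt from Ptcd2. Others serve elsewhere, such as Fau beside Mrpl49, which encodes a cytosolic ribosomal protein, and Ncapd2 beside Mrpl51, a condensin subunit.

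Scaled to library totals, the 78 transcripts kept close to the same summed level in both genotypes. Their summed FPKM was 911, 919 and 922 in Prdx1 C52S and 866, 985 and 992 in WT, so that the 3 Prdx1 C52S values lay inside the WT range. They took 0.208%, 0.208% and 0.211% of the counts in Prdx1 C52S and 0.2%, 0.23% and 0.228% in WT. With TMM factors, the members' median log2 deviation from the 6-library mean was 0.07, 0.14 and 0.11 in Prdx1 C52S. In WT it was -0.14, -0.23 and 0.05. In whole liver, fewer cells of a type and less RNA per cell cannot be told apart. Between libraries the members varied little: the median SD of log2 FPKM over the 6 libraries was 0.139 for the members, 0.24 for the 9428 genes tested with a mean of at least 2 FPKM and 0.393 for all genes tested. The least variable were Mrps35 (SD 0.0554), Mrpl21 (0.0609) and Mrpl12 (0.0611), and the most variable were Mrpl40 (0.295), Mrps6 (0.268) and Mrps25 (0.265).

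**Figure D1:**
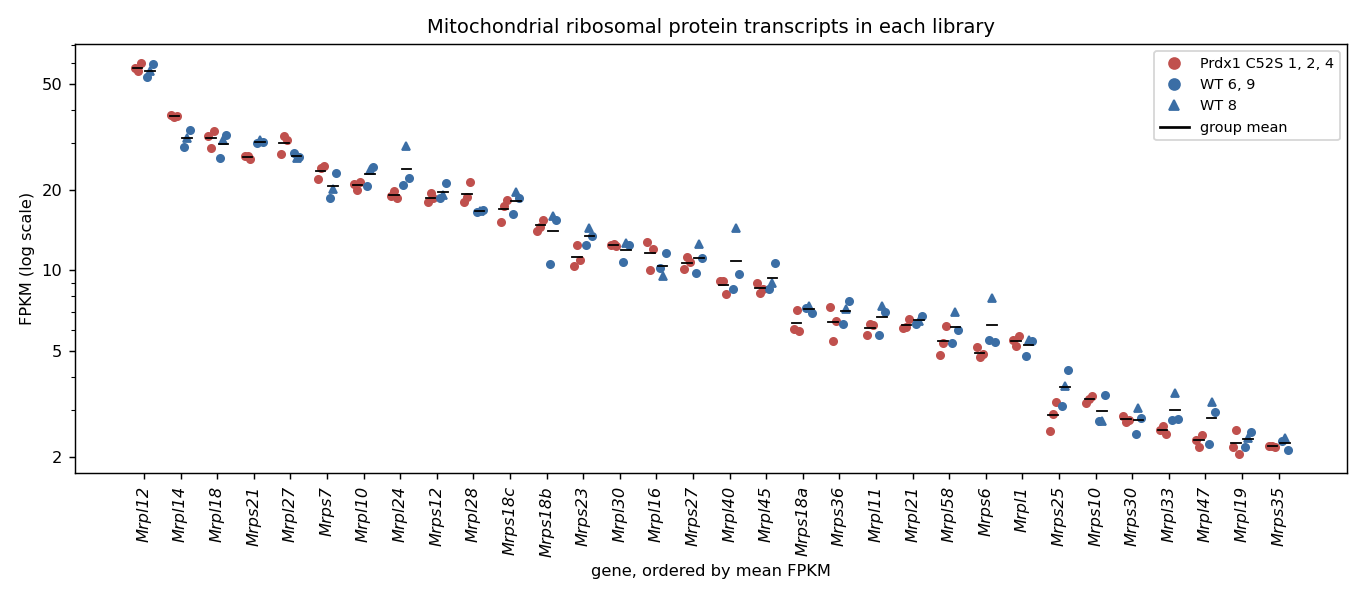
FPKM (log axis) of the 32 members taken by the naming rule, in each library, ordered by mean FPKM; circles are Prdx1 C52S 1, 2 and 4 (red) and WT 6 and 9 (blue), triangles are WT 8 and short lines are group means (n = 3). Mrpl14 and Mrpl28 are higher in every Prdx1 C52S library than in any WT library, Mrps21, Mrpl24, Mrps23, Mrps6 and Mrpl33 are lower, and the WT 8 triangle stands above the other libraries for Mrpl40, Mrps6 and Mrpl24.

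Levels between members depended on the length by which they were divided. The deposited FPKM values divide by the joined length of all annotated exons of a gene: for 98.6% of the 10992 genes with at least 200 estimated counts in every library, the length implied by the count and the FPKM was in one ratio to that length within 0.02 on the log2 scale. Over the 78 members the mean FPKM ran from 2.23 to 56.7, a 25.4-fold range, whereas the mean estimated CPM ran from 9.5 to 96.2, a 10.1-fold range. Spearman's rho across the 78 members was -0.84 between FPKM and joined exon length and 0.24 between CPM and that length. When the CPM were divided by the length of the APPRIS principal transcript instead, levels ran from 2.78 to 73.1 per kilobase.

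Mrpl12, a protein of the stalk to which translation factors bind, was the most abundant member under both lengths, at 57.1, 55.6 and 59.5 FPKM in Prdx1 C52S and 53.1, 55.7 and 59.1 FPKM in WT. Mrpl14, of the face of the large subunit that meets the small one, came next under both. Mrpl33, a small protein of the large subunit with a bacterial counterpart, had a rank that depended on the length. By FPKM it was the 75th of 78, at 2.76, while per kilobase of its principal transcript it was the 6th, at 47 CPM. Its annotated exons join to 7326 nt, 15.3 times its principal transcript of 478 nt. For 20 members the joined length was at least 2 times that of the principal transcript. Mrpl19 and Mrps35, the lowest by FPKM, were also among the 5 lowest per kilobase, with 2.78 and 5.13 CPM. The median level per kilobase of the principal transcript was 20.7 for the large subunit (51 genes) and 16.4 for the small subunit (26 genes), with ranges of 2.78 to 73.1 and 3.51 to 47.8.

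**Figure D2:**
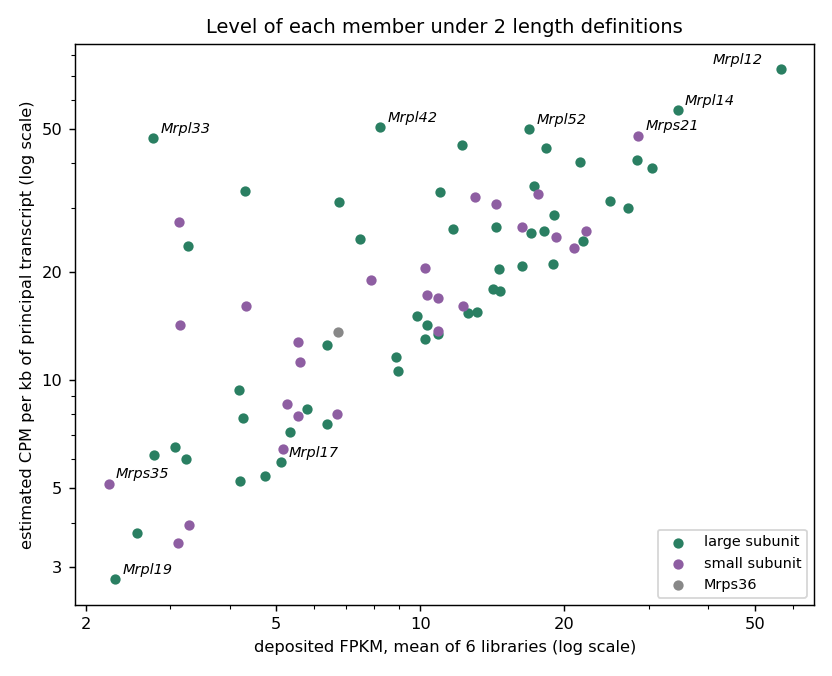
Level of each of the 78 members as deposited FPKM (mean of 6 libraries, x axis, log scale) against estimated CPM per kilobase of the principal transcript (y axis, log scale); colours mark large subunit, small subunit and Mrps36. Mrpl12 and Mrpl14 lead on both axes, and Mrpl33 and Mrpl42 stand far above the other genes of similar FPKM.

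The comparison of Prdx1 C52S with WT asks whether the transcripts differ between the genotypes on this diet. No member was called. In the edgeR quasi-likelihood test with TMM factors and Benjamini-Hochberg adjustment over 18931 genes, 0% of all genes passed an adjusted p of 0.05 in either direction, the smallest adjusted p being 0.0553 over all genes and 0.0819 over the members. Log2 fold changes (Prdx1 C52S minus WT) were positive for 75 members and negative for 3, with a median of 0.21 and a range of -0.06 to 0.55, beside medians of -0.03 for all genes tested and 0.08 for genes with a mean of at least 2 FPKM. At an unadjusted p under 0.05, 24 members were higher and 0 lower, where 11.5% of all genes tested were higher and 14.8% lower. Of the 9428 genes with a mean of at least 2 FPKM, as all members have, 1812 were higher and 1058 lower.

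The sign of the members' median differed between scalings. The TMM factors raise the Prdx1 C52S libraries relative to WT, and all genes tested moved with them, from a median of -0.34 with library totals to -0.03 with TMM. With library totals only, the members' median was -0.09, with 21 positive and 57 negative, and 1 member was higher and 1 lower at an unadjusted p under 0.05, where 3.73% of all genes were higher and 30.4% lower. The members' median lay above that of all genes by 0.24 with TMM and by 0.25 with library totals, and by 0.15 under either scaling without WT 8. Genes with a mean of at least 2 FPKM stood nearer to the members, with medians of 0.08 with TMM and -0.23 with library totals. Under TMM, 52 of the 78 differed by less than 1.2-fold, and with library totals 73 did. Standard errors of the log2 fold changes ran from 0.081 to 0.22 with a median of 0.12.

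**Figure D3:**
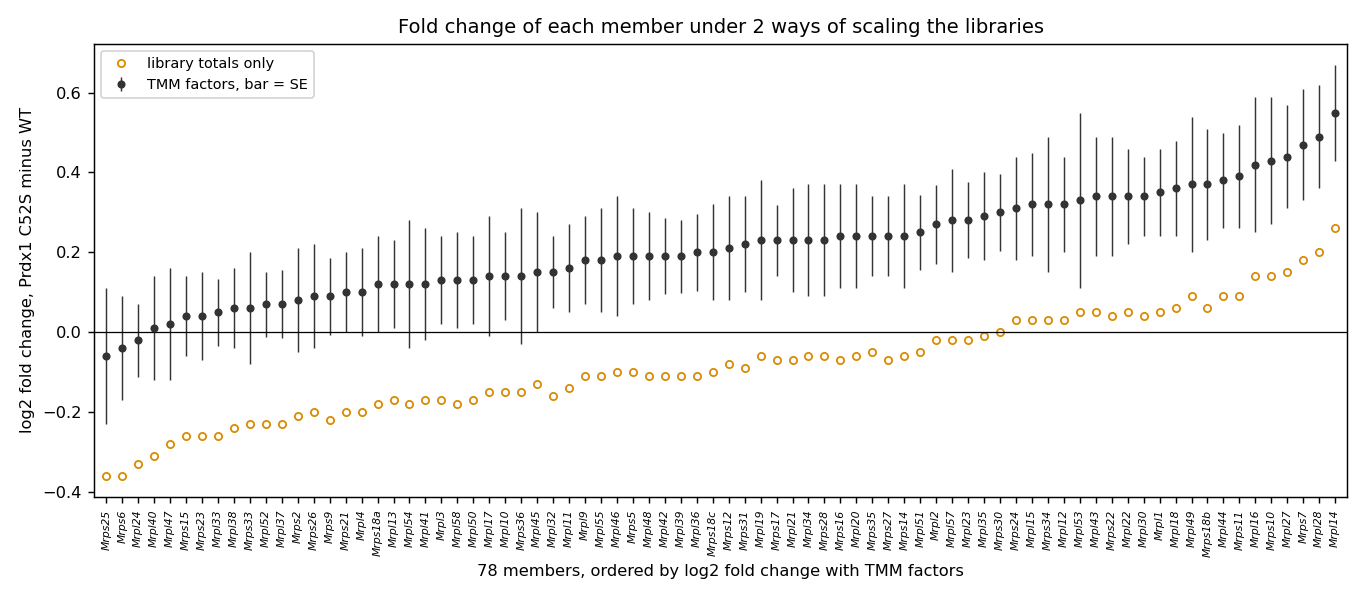
Log2 fold change (Prdx1 C52S minus WT, 3 libraries each) of all 78 members, ordered; filled points with bars are edgeR estimates with TMM factors and their SE, open points the estimates with library totals only. Filled points run from -0.06 to 0.55 and open points from -0.36 to 0.26, in nearly the same order.

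WT 8 and WT 9 set much of the WT level. The highest FPKM of a member was in WT 8 for 38 members, in WT 9 for 23, in WT 6 for 1 and in a Prdx1 C52S library for 16, while the lowest was in WT 6 for 30 and in a Prdx1 C52S library for 42. With library totals, the members' median log2 deviation from the 6-library mean was -0.05, -0.04 and -0.04 in the Prdx1 C52S libraries, against -0.09, 0.12 and 0.09 in WT 6, 8 and 9. With TMM factors it was 0.07, 0.14 and 0.11 against -0.14, -0.23 and 0.05, so that WT 8 moved from the highest of the 6 to the lowest. Without WT 8 the median log2 fold change was 0.14, 17 members were higher at an unadjusted p under 0.05 (11.2% of all genes), and Mrpl14 alone was called (adjusted p = 0.0442, edgeR), where 2.7% of all genes were called higher. Without WT 9, 44 members were higher at an unadjusted p under 0.05, where 13.6% of all genes were. In that fit 0 members were called (smallest edgeR adjusted p = 0.0503), where 63 of all 19653 genes were called higher and 69 lower. The count of members higher at an unadjusted p under 0.05 was 9 without WT 6, where 1975 of all 19567 genes tested were higher. It was 11, 13 and 10 without Prdx1 C52S 1, 2 and 4, where 1604 of 19754, 1344 of 19783 and 1416 of 19766 genes were. With all libraries it was 24, where 2176 of 18931 genes were.

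Other tests called more. DESeq2 called 5 members higher (Mrpl14, Mrpl28, Mrpl27, Mrpl30 and Mrps7) and 7.39% of all genes, and voom with library quality weights called 5 (Mrpl14, Mrpl28, Mrps18b, Mrpl30 and Mrps7) and 5.4% of all genes. By the deposited FPKM, the groups did not overlap for 3 members that were higher in Prdx1 C52S (6.09% of all genes tested) and for 13 that were lower (36.7% of all genes tested). The 3 were Mrpl14, Mrpl28 and Mrpl44, the 13 were Mrpl13, Mrpl24, Mrpl33, Mrpl37, Mrpl38, Mrpl52, Mrps2, Mrps6, Mrps15, Mrps21, Mrps23, Mrps26 and Mrps33, and the other 62 members overlapped. With TMM factors the picture turned: 32 members were higher without overlap and 0 lower, where 16.9% of all genes tested were higher and 18% lower. Of the 9428 genes with a mean of at least 2 FPKM, 2507 were higher and 1304 lower in this way.

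Among the large-subunit proteins with a bacterial counterpart, 29 of 30 log2 fold changes were positive, with a median of 0.23. Mrpl14 (ENSMUSG00000023939, chr17:45686322-45698495) was at 38.1, 37.4 and 37.7 FPKM in Prdx1 C52S and at 29, 31.4 and 33.6 FPKM in WT. All 3 Prdx1 C52S libraries were above all 3 WT libraries, with a log2 difference of 0.55 (SE 0.12, edgeR adjusted p = 0.0819), or 0.26 with library totals. Mrpl28, which lies near the exit site for tRNA, was at 18, 18.8 and 21.4 FPKM against 16.6, 16.7 and 16.9 FPKM. The WT libraries were nearly equal and the groups did not overlap (log2 fold change 0.49, SE 0.13, edgeR adjusted p = 0.0936).

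Mrpl27, whose bacterial counterpart reaches towards the peptidyl transferase centre, was at 27.2, 31.8 and 30.8 FPKM in Prdx1 C52S and 27.6, 26.3 and 26.5 FPKM in WT, and Prdx1 C52S 1 lay within the WT range. It differed by 0.44 on the log2 scale (SE 0.13, edgeR adjusted p = 0.109), and it has a pseudogene in the table, so its reads may be divided. Mrpl16, counterpart of a protein near the same centre, was at 12.8, 10 and 12 FPKM against 10.2, 9.5 and 11.6 FPKM, with overlap (0.42, SE 0.17). Mrpl30 was at 12.4, 12.6 and 12.3 FPKM against 10.8, 12.7 and 12.4 FPKM: WT 6 was low and the other 5 libraries were alike (0.34, SE 0.099, edgeR adjusted p = 0.107). Mrpl1 and Mrpl18 overlapped in the same way, with WT 6 lowest, and their log2 fold changes were 0.35 and 0.36.

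The stalk and its base gave smaller values. Mrpl12 differed by 0.32 (SE 0.12, edgeR adjusted p = 0.161), and Mrpl10, which anchors it, was at 21, 20 and 21.4 FPKM in Prdx1 C52S and 20.7, 23.8 and 24.4 FPKM in WT (0.14, SE 0.11). Mrpl11, also at the stalk base, was at 5.73, 6.29 and 6.27 FPKM against 5.72, 7.36 and 6.98 FPKM (0.16, SE 0.11). Groups overlapped by FPKM for all 3, and for Mrpl10 and Mrpl11 the log2 fold change turned negative with library totals.

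At the low end of the large subunit, Mrpl24 was at 19, 19.9 and 18.6 FPKM in Prdx1 C52S and 20.8, 29.3 and 22.1 FPKM in WT. Every WT library was higher, WT 8 most, yet the log2 fold change was -0.02 (SE 0.091) with TMM, against -0.33 with library totals. Mrpl33 was at 2.52, 2.61 and 2.44 FPKM against 2.75, 3.47 and 2.77 FPKM, again lower without overlap by FPKM, with a log2 fold change of 0.05 under TMM and -0.26 with library totals. Mrpl47, at 2.33, 2.18 and 2.43 FPKM against 2.24, 3.22 and 2.95 FPKM, overlapped (0.02, SE 0.14). Its locus overlaps Ndufb5 and Actl6a on the other strand. Mrpl19 and Mrpl21 overlapped between groups (both 0.23).

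The 21 large-subunit proteins without a bacterial counterpart had a median of 0.19, and all 21 were positive with TMM, while 17 were negative with library totals. Mrpl44, which has the fold of an RNase III, was the one of them higher without overlap by FPKM, at 10.4, 10.3 and 10.9 FPKM against 9.4, 9.88 and 10.3 FPKM. The gap between its groups is smaller than the digits printed, and it was named after its values were seen. Mrpl45, which holds the ribosome to the inner membrane, was at 8.94, 8.26 and 8.56 FPKM in Prdx1 C52S and 8.53, 8.95 and 10.7 FPKM in WT, with overlap (0.15, SE 0.15). Mrpl58 was at 4.83, 5.36 and 6.18 FPKM against 5.37, 7.02 and 5.99 FPKM (0.13, SE 0.12).

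Mrps30 and Mrps18a, the large-subunit proteins with small-subunit names, did not separate the groups by FPKM. Mrps30 was at 2.86, 2.71 and 2.75 FPKM in Prdx1 C52S and 2.44, 3.05 and 2.8 FPKM in WT (0.30, SE 0.096, edgeR adjusted p = 0.121). Mrps18a was at 6.05, 7.14 and 5.92 FPKM against 7.21, 7.36 and 6.91 FPKM (0.12, SE 0.12). Mrpl40 varied most of all members, at 9.14, 9.14 and 8.16 FPKM in Prdx1 C52S and 8.52, 14.4 and 9.71 FPKM in WT. The high value was WT 8 alone, and the log2 fold change was 0.01 (SE 0.13).

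In the small subunit, 24 of 26 log2 fold changes were positive, with a median of 0.23. The median was 0.21 for the 15 classed here as having a bacterial counterpart and 0.23 for the other 11. Mrps7, which helps to form the head of the subunit, was at 21.9, 24.2 and 24.7 FPKM in Prdx1 C52S and 18.7, 20.2 and 23.2 FPKM in WT. Of the WT libraries, WT 9 reached into the Prdx1 C52S range (0.47, SE 0.14, edgeR adjusted p = 0.115). Mrps10, also of the head, was at 3.19, 3.3 and 3.38 FPKM against 2.74, 2.74 and 3.42 FPKM, where WT 9 was the highest of all (0.43, SE 0.16). Mrps12, at the decoding site, was at 18, 19.5 and 18.6 FPKM against 18.6, 19.1 and 21.2 FPKM (0.21, SE 0.13).

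Mrps21 was tight within each group, at 26.9, 26.7 and 26.2 FPKM in Prdx1 C52S and 29.9, 30.9 and 30.2 FPKM in WT. All Prdx1 C52S libraries were lower by FPKM, whereas the log2 fold change with TMM was 0.10 (SE 0.1, edgeR adjusted p = 0.595) and -0.20 with library totals. Mrps6 was at 5.17, 4.74 and 4.85 FPKM against 5.48, 7.89 and 5.41 FPKM, lower without overlap by FPKM and with WT 8 high (-0.04, SE 0.13). Slc5a3 overlaps Mrps6 on the same strand, was itself highest in WT 8 (1.02 FPKM against 0.409 to 0.72 FPKM elsewhere), and reads of the pair may not have been told apart.

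Among the small-subunit proteins without a bacterial counterpart, Mrps25 had the lowest log2 fold change of all members, -0.06 (SE 0.17). It was at 2.5, 2.91 and 3.23 FPKM in Prdx1 C52S and 3.1, 3.68 and 4.23 FPKM in WT. Mrps23 was at 10.4, 12.5 and 10.9 FPKM against 12.5, 14.4 and 13.4 FPKM, lower by FPKM with groups that meet within the digits printed (0.04, SE 0.11). Mrps27, a pentatricopeptide repeat protein, was at 10.1, 11.2 and 10.8 FPKM against 9.75, 12.6 and 11.1 FPKM (0.24, SE 0.1). Mrps35 was nearly constant, between 2.13 and 2.36 FPKM in all 6 libraries (0.24, SE 0.1).

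The 3 proteins that share the S18 name differ in place, since Mrps18a sits in the large subunit while Mrps18b and Mrps18c sit in the small one. Mrps18b was at 14.1, 14.6 and 15.5 FPKM in Prdx1 C52S and 10.6, 16 and 15.4 FPKM in WT. WT 6 was low and the other 5 libraries were alike (0.37, SE 0.14, edgeR adjusted p = 0.163). Mrps18c was at 15.2, 17.5 and 18.4 FPKM against 16.3, 19.6 and 18.6 FPKM (0.20, SE 0.12). Mrps36, which is no ribosomal protein by present knowledge and has 2 pseudogenes in the table, was at 7.31, 5.44 and 6.46 FPKM against 6.31, 7.18 and 7.69 FPKM (0.14, SE 0.17).

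To remove the scaling between libraries, each member was set against the median of the 78 within its own library. On this relative level, 9 members were higher in every Prdx1 C52S library than in any WT library and 8 were lower, where 7.56% and 28.3% of all genes tested were, measured against the same median. These differences hold under either scaling, since a factor common to a library drops out, but they say how members stand to each other and not to the cell. This step centres the members on their own median but does not centre all genes. The shares of all genes therefore cannot be read against the members' counts. Mrpl14 stood 0.77, 0.76 and 0.72 above the median in Prdx1 C52S and 0.43, 0.35 and 0.45 above it in WT, on the log2 scale. The difference of 0.34 was the largest. Mrpl28 (0.28), Mrps7 (0.26), Mrps10 (0.23), Mrpl44 (0.17), Mrpl18 (0.15), Mrpl30 (0.13), Mrpl1 (0.13) and Mrpl12 (0.11) followed, the groups of Mrpl18 meeting within the digits printed (lowest Prdx1 C52S value 0.94, highest WT value 0.94), and 8 of these 9 have a bacterial counterpart, Mrpl44 being the exception. In all, 30 of the 51 large-subunit proteins and 15 of the 26 small-subunit proteins were classed here as having one.

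The 8 lower members were Mrps25 (-0.27), Mrps15 (-0.17), Mrpl37 (-0.15), Mrpl38 (-0.15), Mrpl4 (-0.12), Mrps21 (-0.12), Mrpl41 (-0.09) and Mrpl10 (-0.07). Mrps25 stood at -0.37, -0.12 and -0.03 in Prdx1 C52S and at 0, 0.05 and 0.25 in WT, so its gap between the groups was narrow beside its spread. Mrpl38 was at 0.94, 0.91 and 0.96 against 1.05, 1.13 and 1.08, a smaller difference with less spread. Of these 8, 4 have a bacterial counterpart.

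**Figure D4:**
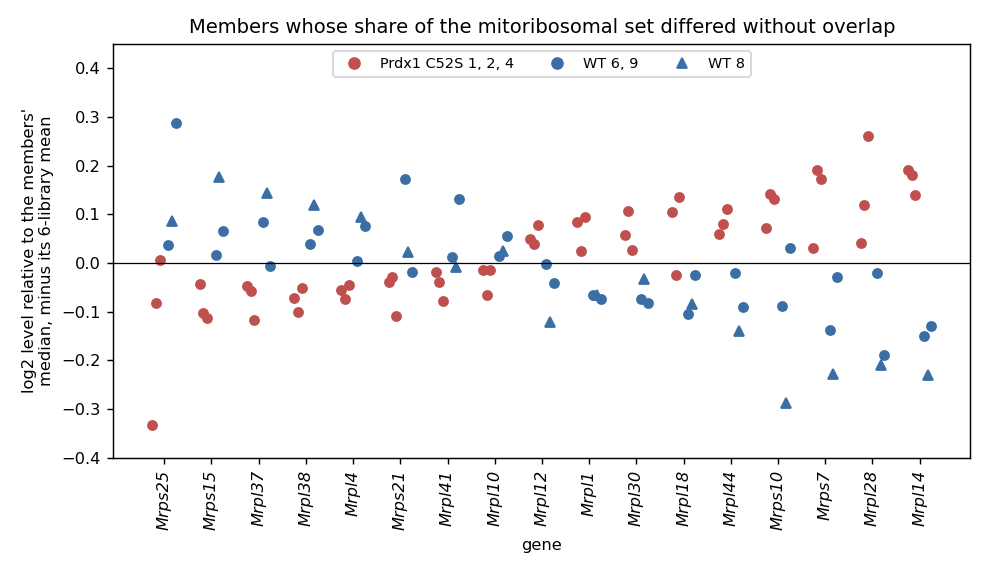
Log2 level relative to the median of the 78 members in the same library, minus its mean over the 6 libraries, for the 17 members whose groups did not overlap; red circles are Prdx1 C52S libraries, blue circles WT 6 and 9 and blue triangles WT 8. The 8 genes on the left are lower in Prdx1 C52S and the 9 on the right are higher, with Mrpl14 showing the widest separation.

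The fold changes were set beside the ETS, NRF1 and YY1 letters only, and a relation between them was not tested. The median log2 fold change was 0.22 for the 26 members with the ETS letters and 0.19 for the 43 with a window and no match, 0.16 against 0.22 for the NRF1 letters (8 and 61 members) and 0.27 against 0.20 for the YY1 letters (12 and 57 members). The 20 head-to-head partners had a median of 0.10, with 15 positive, beside 0.21 for the 20 members they face. Tmem63b, 63 nt from Mrpl14, differed by 0.35, and Ndufs6 by 0.42, with adjusted p of 0.117 and 0.131 in edgeR. Ncapd2, 100 nt from Mrpl51 by gene span, differed by -0.77 (edgeR adjusted p = 0.0842) where Mrpl51 differed by 0.25.

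Other genes of mitochondrial translation were described as lists, in each of which 0 genes were called by edgeR in either direction. The 6 mitoribosome proteins with other names were all positive with TMM, with a median of 0.21 and -0.09 with library totals, the same as the members. The 28 ribosome assembly and rRNA modification genes had a median of 0.12 (21 positive), or -0.18 with library totals. The 15 translation factors and mRNA handling genes tested had a median of 0.29 (13 positive), or 0 with library totals and 0.16 without WT 8, and the 20 aminoacyl-tRNA synthetase genes one of 0.26 (16 positive), or -0.04 with library totals. Gfm1, the elongation factor that moves the ribosome along, was at 24.7, 23.2 and 24.6 FPKM in Prdx1 C52S and 20.3, 17.8 and 20.9 FPKM in WT, without overlap (0.57, SE 0.16, edgeR adjusted p = 0.102). Taco1, needed to translate the COX1 message, was at 13.7, 14.2 and 13.9 FPKM against 11.1, 9.66 and 12 FPKM, also without overlap (0.62, SE 0.17, edgeR adjusted p = 0.0975).

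The messages that these ribosomes translate stood further from zero than the members. All 13 mRNAs of the mitochondrial genome were positive with TMM (median 0.53, or 0.41 without WT 8) and 12 with library totals (median 0.25). By FPKM, 11 of the 13 were higher in every Prdx1 C52S library than in any WT library, and 1 was lower. Over all genes tested these shares were 6.09% and 36.7%. The lower one was mt-Nd3, at 1070, 1040 and 1050 FPKM in Prdx1 C52S and 1110, 1080 and 1160 FPKM in WT. mt-Atp6 was at 6180, 6350 and 6260 FPKM in Prdx1 C52S and 5020, 4770 and 5380 FPKM in WT (0.59, SE 0.19, edgeR adjusted p = 0.125). The 15 genes taken as a measure of mitochondrial content, such as porins and import subunits, had a median of 0.21 with TMM, -0.07 with library totals and 0.09 without WT 8, beside 0.21, -0.09 and 0.14 for the members. Of the 14 genes for mitochondrial DNA transcription and its regulators, 5 were positive (median -0.06, or -0.36 with library totals). Among them Tfam, which packages mitochondrial DNA, differed by 0.38 (edgeR adjusted p = 0.0965), and Myc by -2.17 (edgeR adjusted p = 0.097).

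**Figure D5:**
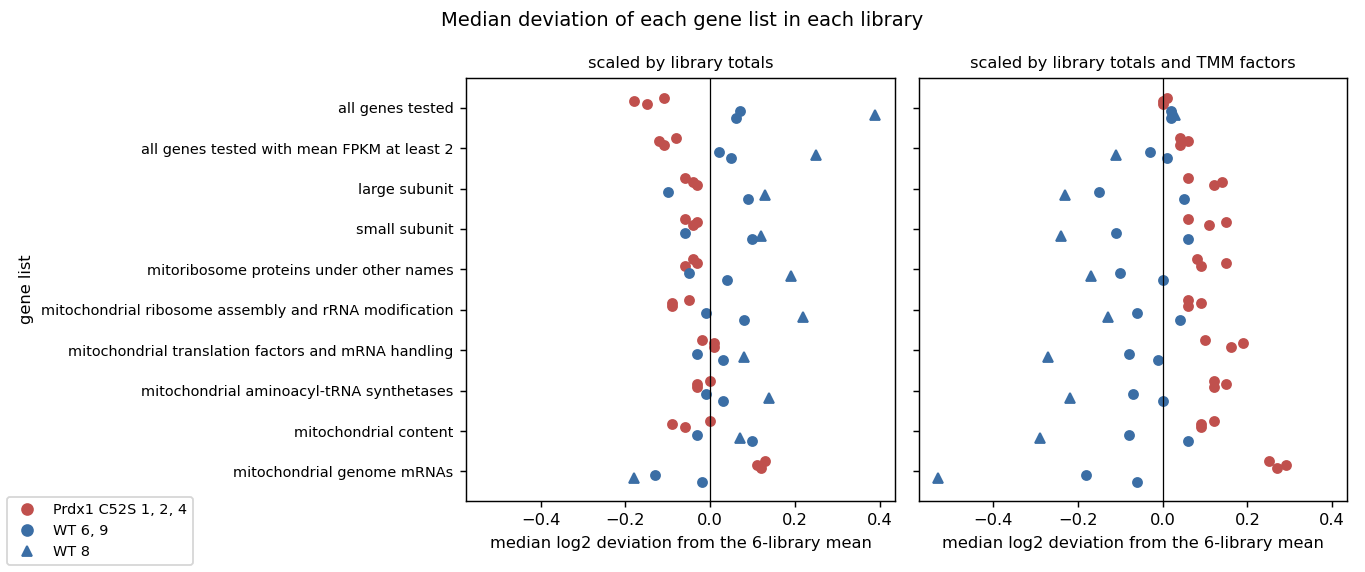
Median log2 deviation of each gene list (rows) from its 6-library mean, in each library, with library totals (left) and with TMM factors (right); red circles are Prdx1 C52S, blue circles WT 6 and 9 and triangles WT 8. The subunit rows overlap between groups on the left and meet on the right at WT 9 only, WT 8 moves from high to low for both subunits, and the mitochondrial genome mRNAs are separated in both panels.

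The markers of liver cell types differed in how far they separated the groups. Of 9 hepatocyte markers tested, 7 were positive (median 0.28, or -0.03 with library totals and 0.15 without WT 8), and their summed level was 30900 to 33800 FPKM in Prdx1 C52S and 28100 to 30500 FPKM in WT. All 10 cholangiocyte markers were negative (median -3.08, or -1.57 without WT 8), with sums of 68.4 to 137 FPKM against 237 to 867 FPKM. All 9 T, B and NK cell markers were negative (median -0.88), with sums of 3.34 to 4.11 FPKM against 6.53 to 12.8 FPKM. Macrophage and Kupffer cell markers had 5 of 10 negative (median -0.16, or -0.49 without WT 8, with sums of 380 to 409 against 518 to 736 FPKM), stellate cell markers 5 of 8 (61.5 to 76.4 against 84.7 to 112 FPKM) and sinusoidal endothelium markers 3 of 8 (median 0.26, or -0.15 without WT 8, with overlapping sums of 58.1 to 66 against 37.1 to 75.3 FPKM). In all, 1 marker, of the macrophage list, was listed at 0 in some library, and 0 markers were called. Their part in the values of the mitochondrial ribosomal genes was not tested.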

How the data were processed

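Per the labels' protocols, poly(A)-selected RNA of 6 liver samples was sequenced as read pairs with molecular identifiers. The authors deposited FPKM values and estimated counts for each gene, per the file headers. HISAT2 2.0.4, StringTie 1.3.4d, cutadapt 1.9, edgeR, UMI-tools and DESeq2 are named, without a role, by the submitters' processing notes. The sources used here do not give the use of strand in counting or the handling of reads shared with pseudogenes. The build listed there is mm9, but 69 of the 78 members have the start and end of GRCm38 (GENCODE M21) exactly, and coordinates are given on GRCm38. The deposited estimated counts peak at 4 among low values (6204 values, beside 5315 at 1, 3954 at 2 and 3538 at 3). A fragment may be worth about 4 counts, but the many values of 1 and 2 are not accounted for by that. If it holds, count models would treat low genes as more precise than they are.

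Whole-number estimated counts entered edgeR 4.0.16 (R 4.3.3), with a two-sided robust quasi-likelihood F-test, TMM factors, the filterByExpr filter by group and Benjamini-Hochberg adjustment over all 18931 genes tested (threshold 0.05). The common biological coefficient of variation was 0.31. DESeq2 1.42.0, limma 3.58.1 and other scalings and filters were alternatives. The members and lists were chosen with earlier results of these data known. Named are the 6 highest and 6 lowest log2 fold changes, the 6 smallest p-values, the 4 highest and 4 lowest FPKM, the 3 largest and 3 smallest spreads, a panel of 12, and up to 3 genes of each related list. Other genes, such as Mrpl44 and head-to-head partners, were named after their values were seen. Of all 78 members, 10 overlap a gene on the same strand and 30 one on the other.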

Additional observations from a re-analysis of the deposited data

How the results depend on the processing

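The sign of the members' median follows the scaling between libraries, and which scaling is apt, as well as the cause of the other differences below, was not tested. The number of genes called higher and lower was 1399 and 1723 with DESeq2, 1023 and 1006 with voom, 35 and 125 with library totals, 8 and 11 with quantile normalization, 105 and 91 without a filter, 39 and 94 on log2(FPKM + 1), 59 and 221 on log2(FPKM + 0.1), and 200 and 1152 with library totals and no WT 8, an alternative chosen after seeing the data. Leaving out 1 library gave 0 to 522 higher and 0 to 375 lower, the most without WT 8. Members called higher were 5 with DESeq2, 5 with voom and 0 to 1 with a library left out. The members' median was negative with library totals (-0.09), FPKM + 1 (-0.07), FPKM + 0.1 (-0.08) and library totals without WT 8 (-0.06). So was that of the large subunit (-0.11, -0.08, -0.09 and -0.06) and of the small subunit (-0.07, -0.06, -0.06 and -0.04). The large subunit median ran from 0.14 to 0.31 with a library left out. The members' median minus that of all genes was 0.08 with FPKM + 1, a scale on which differences of low genes are smaller. Under library totals, FPKM + 1 and FPKM + 0.1 in turn, log2 fold changes turned negative for Mrpl10 (-0.15, -0.13, -0.14), Mrpl11 (-0.14, -0.11, -0.12), Mrpl19 (-0.06, -0.04, -0.05), Mrpl21 (-0.07, -0.05, -0.06), Mrpl33 (-0.26, -0.18, -0.23), Mrpl40 (-0.31, -0.25, -0.27), Mrpl45 (-0.13, -0.11, -0.12), Mrpl47 (-0.28, -0.19, -0.25), Mrpl58 (-0.18, -0.14, -0.16), Mrps12 (-0.08, -0.06, -0.07), Mrps18a (-0.18, -0.15, -0.17), Mrps18c (-0.10, -0.09, -0.09), Mrps21 (-0.20, -0.18, -0.19), Mrps23 (-0.26, -0.24, -0.25), Mrps27 (-0.07, -0.05, -0.05), Mrps35 (-0.05, -0.03, -0.04) and Mrps36 (-0.15, -0.13, -0.14), and Mrps30 was at 0 with library totals. Values near 0 also changed sign elsewhere: Mrpl24 was 0.03 and Mrps6 0.02 with voom, Mrps6 was 0.13 with quantile normalization, and Mrpl40 was -0.01 with upper-quartile factors and 0 without a filter. With a library left out, Mrpl24 ran from -0.07 to 0.03, Mrpl40 from -0.09 to 0.14, Mrpl47 from -0.08 to 0.13, Mrps23 from -0.05 to 0.11, Mrps25 from -0.16 to 0.12 and Mrps6 from -0.08 to 0.04. No paired analysis was possible because the groups share no replicate number.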
